A study of Mus musculus with 6 samples.

Results

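The potassium channel genes described here are the protein-coding mouse genes whose symbol begins with Kcn, without Kcnj10, Kcnq1 and Kcne1, which serve the endolymph. The annotation holds 91 such genes among 22028 protein-coding genes. At least 1 transcript was listed in the count table for 67 of them, and 45 had enough counts to be tested among the 14118 genes tested in all. RNA came from the cochlear modiolus, the central bone of the cochlea in which the spiral ganglion neurons (SGNs) lie, from C57BL/6 mice. The study's methods describe them as males that were 8 weeks old when the model was established. The control group held 3 libraries from mice given saline, and the degenerated group 3 libraries from mice given 1 g/kg of the aminoglycoside kanamycin and 0.4 g/kg of the loop diuretic furosemide, which together ablate hair cells, so that SGNs are lost over the following weeks. The study's methods place the degenerated group on day 30 after the drugs, so its mice were older than 8 weeks at sampling. No day is given for the control libraries. The labels name SGN as the cell type, while the material was the whole modiolus, and they do not say whether a library came from 1 mouse or from pooled cochleae.

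Potassium channels let potassium leave the cell, which sets the resting potential and ends the action potential. Kv channels open on depolarization and are built of 4 pore-forming subunits, with cytoplasmic beta subunits and other auxiliary proteins attached. Calcium- and sodium-activated channels follow the ion load of a spike, inward rectifiers and K2P leak channels hold the membrane at rest, and silent Kv subunits make channels only together with other Kv subunits. In the auditory nerve, low-threshold Kv1 channels and fast Kv3 channels allow brief and precisely timed spikes, while hair cells carry large Kcnma1 currents.

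The counts belong to Ensembl transcripts and were summed per gene over those in the table. Of the 67 listed genes, 16 had every annotated transcript in the table, and the values of the others describe the listed part only. Levels are given as CPM, counts scaled to the library total after TMM normalization, and for comparisons between genes as CPM per kilobase of listed transcript. A gene or transcript was called when edgeR's quasi-likelihood test gave it an unadjusted p below 0.01 and its log2 fold change was larger than 0.2 in size. The p-values printed are adjusted by Benjamini-Hochberg over all genes or transcripts tested. Log2 fold changes are degenerated over control, and upregulated and downregulated refer to that direction. The standard error (SE) printed with a log2 fold change is its size divided by the square root of the test's F statistic. Fewer cells of a type and less RNA per cell cannot be told apart in such bulk samples.

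Transcript sequences matter for Kcnc1 and Kcnab2, the members with the most counts, ahead of Kcna1. Kcnc1 encodes Kv3.1, the fast channel of high-frequency neurons, on the plus strand of chromosome 7. Its listed transcripts ENSMUST00000025202 and ENSMUST00000160433 share 1504 coding bases and then part. The former ends within its exon 2 after 511 codons (the form known as Kv3.1a), and the latter splices to 2 further exons and ends after 585 codons (Kv3.1b). The last 30 shared bases are printed in lower case and the bases of each transcript's own coding end, with the stop codon, in capitals (GRCm38). They are shown because the transcript with the longer end was called below and the other was not, which does not by itself establish a difference between the 2.
ENSMUST00000025202: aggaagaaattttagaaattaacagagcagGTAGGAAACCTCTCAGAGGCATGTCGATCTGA
ENSMUST00000160433: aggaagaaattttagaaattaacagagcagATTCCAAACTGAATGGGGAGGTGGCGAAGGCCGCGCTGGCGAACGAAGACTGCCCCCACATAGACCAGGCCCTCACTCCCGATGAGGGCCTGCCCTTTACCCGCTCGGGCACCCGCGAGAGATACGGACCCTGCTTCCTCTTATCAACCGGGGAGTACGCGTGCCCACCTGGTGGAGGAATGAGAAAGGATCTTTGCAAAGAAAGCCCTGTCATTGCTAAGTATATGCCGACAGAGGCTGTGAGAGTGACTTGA

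Kcnab2, on the minus strand of chromosome 4, encodes Kvbeta2, the cytoplasmic subunit that binds Kv1 channels and helps to carry them to the axon. Its transcripts ENSMUST00000030768 and ENSMUST00000159840 have the same coding sequence and differ in their first exon, which lies at chr4:152477401-152477525 in the former and at chr4:152448678-152448840 in the latter. The 250 bases before the RefSeq start nearest to each first exon (GRCm38.p6, minus strand) are printed with CG dinucleotides in capitals, because the transcript to which the counts were assigned differed between libraries. Another start and another assignment of the same reads between these transcripts cannot be told apart from this table.
ENSMUST00000030768, chr4:152477550-152477799: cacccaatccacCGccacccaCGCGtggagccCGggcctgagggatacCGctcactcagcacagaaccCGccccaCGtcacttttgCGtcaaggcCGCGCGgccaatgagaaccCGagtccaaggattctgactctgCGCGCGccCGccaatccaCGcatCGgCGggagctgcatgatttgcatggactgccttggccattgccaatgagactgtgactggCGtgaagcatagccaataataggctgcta
ENSMUST00000159840, chr4:152448856-152449105: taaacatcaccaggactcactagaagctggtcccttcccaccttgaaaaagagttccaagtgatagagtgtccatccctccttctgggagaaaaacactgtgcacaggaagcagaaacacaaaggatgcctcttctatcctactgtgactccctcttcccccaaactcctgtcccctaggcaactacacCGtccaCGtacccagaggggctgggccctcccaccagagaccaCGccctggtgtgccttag
The first window held 20 CG and the second 3, where the median over 32851 mouse promoter windows of that length was 6. At least 20 CG stood in 17.9% of these windows, and at least 3 in 71.0%. The counts of CG describe the windows, and nothing about the use of either start was drawn from them.

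The 6 libraries held 12480876 to 15549319 counts, of which 0.153% to 0.232% fell on the potassium channel genes. Across genes, Pearson correlations between libraries of a group were 0.913 to 0.948 on the log2 scale of CPM. SGN markers summed to 11761 to 15320 CPM in control and 6944 to 10341 CPM in degenerated libraries, and 13 of 14 tested had a negative log2 fold change, with 1 called (Calb2). Of 9 tested hair cell markers, 7 had a negative log2 fold change and 4 were downregulated (Ocm, Slc26a5, Myo15 and Pvalb). The outer hair cell motor gene Slc26a5 stood at -5.11. Strc (-1.49), Otof (-0.56) and Tmc1 (-0.56) were not called, and Myo7a (0.15) and Pcdh15 (0.37) had a positive sign, also not called. Hair cell markers summed to 1292 to 1631 CPM in control and 631 to 961 CPM in degenerated libraries. Pvalb, which neurons also express, made up 722 to 817 CPM of the control sums and 323 to 512 CPM of the degenerated ones. None of 7 tested Schwann cell and satellite glia markers was called, and their sums overlapped (5518 to 9791 and 4900 to 7728 CPM). Of 5 tested macrophage markers, 3 had a positive and 2 a negative log2 fold change, and 2 were upregulated (C1qb and C1qc), while Cx3cr1 (1.85), Cd68 (-1.54) and Itgam (-0.67) were not called. Aif1, listed but not tested, had 15.1, 0.0707 and 16.2 CPM in control and at most 0.137 CPM in degenerated libraries. The macrophage markers summed to 426 to 484 CPM in control and 490 to 679 CPM in degenerated libraries. Of 8 tested markers of the stria vascularis and epithelium, 7 had a positive log2 fold change (median 0.36) and 0 were called, with sums of 977 to 1312 CPM in control and 1309 to 1546 CPM in degenerated libraries. Among these 7 was Kcnj13, which is also a member. All 6 tested bone markers had a negative log2 fold change (median -0.94), and 1 was downregulated (Bglap). The bone markers summed to 1930 to 2461 CPM in control and 1135 to 1759 CPM in degenerated libraries. Control replicate 3 stood apart by skeletal muscle markers, which summed to 541 CPM there and to 13.7 to 25.7 CPM elsewhere. All 5 tested muscle markers had a negative log2 fold change (median -3.27), with 0 called. Control replicate 2 held the most counts of blood markers (53350 CPM, against 5284 to 27404 CPM), and all 9 tested had a negative log2 fold change (median -1.43, range -1.59 to -1.01), with 0 called. The part of these differences in the results below was not tested.

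The potassium channel genes with the highest level per length were Kcnab2 (124 CPM per kilobase, mean of the 6 libraries), Kcna1 (80.6) and Kcnc1 (71.6), which encode the Kvbeta2, Kv1.1 and Kv3.1 subunits. They were followed on the same scale by Kcnj13 with 25.3, Kcnk2 with 25.0, Kcna10 with 23.6, Kcnn2 with 22.3 and Kcnab1 with 19.0. In control libraries, the 5 members with the highest CPM held 70.7% of the CPM of all listed members. At the other end, 22 listed members did not have enough counts to be tested, with at most 6.57 CPM in any library, and 7 of them had 0 counts in every library (Kcnh6, Kcnd3, Kcnq5, Kcnj1, Kcnj5, Kcng2 and Kcnk15). A count of 0 over the 86707381 counts of the 6 libraries allows a level of up to 0.0346 CPM, for counting error only and for the listed transcripts only.

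**Figure D1:**
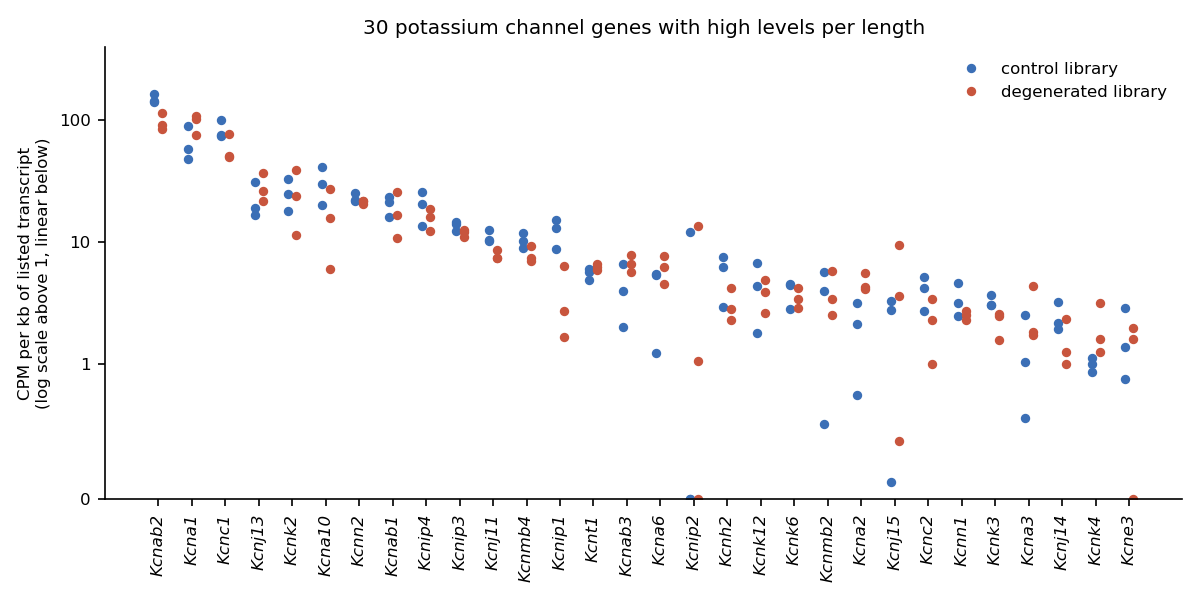
Level per length (CPM per kilobase of listed transcript, log scale above 1 and linear below) of 30 members with high means, with 1 point per library and the 3 control and 3 degenerated libraries side by side. Kcnab2, Kcna1 and Kcnc1 stand above all others, and the groups overlap in most members.

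Among the 45 members tested, 0 were called upregulated and 2 downregulated, Kcnab2 and Kcng1, which is 4.44% of the members where 0.715% of all genes were called lower and 2.01% higher. After adjustment no member passed 0.05 with edgeR, where the smallest adjusted p of a member was 0.319, and neither did any of the 14118 genes. DESeq2 gave 1 of the 45 members an adjusted p under 0.05, Kcnab2 with 0.0252, where 383 of the 14118 genes (2.71%) passed. Only 12930 of the 14118 were given an adjusted p by DESeq2. With limma-voom no member passed. At an unadjusted p under 0.05, 6 members were found, or 13.3% against 9.68% of all genes. On the higher side there were 2, among them Kcnma1, where 6.08% of all genes were found, and on the lower side 4, Kcnab2, Kcng1, Kcnip1 and Kcnj11, where 3.60% were. The 3 values of one group lay wholly above those of the other in 11 members (24.4%, against 17.7% of all genes), 5 of them higher and 6 lower in degenerated libraries, where 10.3% and 7.37% of all genes were. The members had 21 positive and 24 negative log2 fold changes with a median of -0.07, beside -0.0034 over all genes tested, and the median was 0.15 over the 15 members without unlisted transcripts, when only such genes were fitted. With 3 libraries against 3, 0.1 is the smallest p that an exact permutation test can give.

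**Figure D2:**
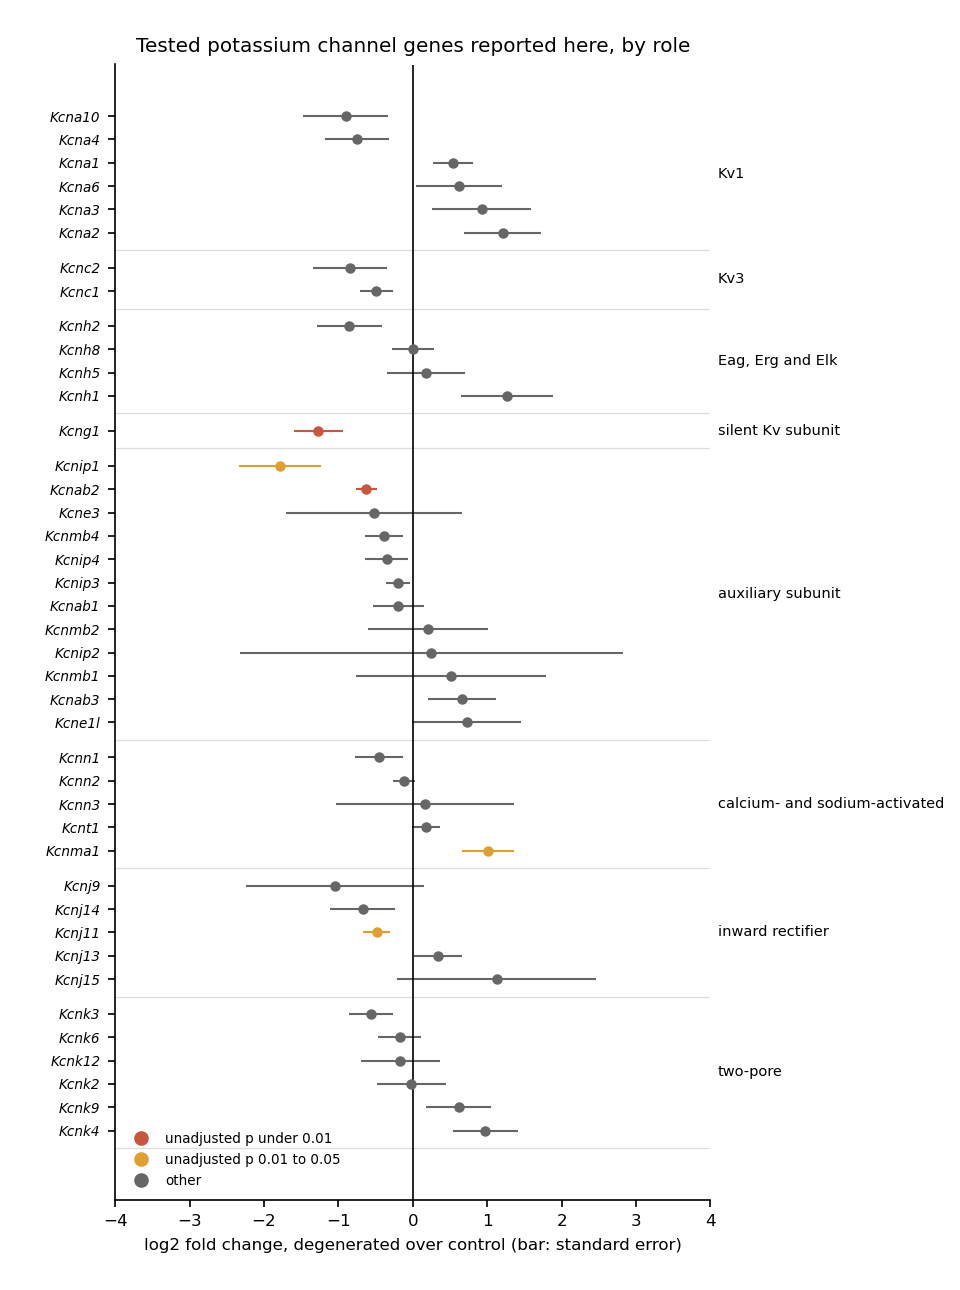
Log2 fold change (degenerated over control, points) with its standard error (bars) for 41 of the 45 tested members, by role. Red points are the 2 members at an unadjusted p under 0.01, Kcnab2 and Kcng1, orange points are Kcnip1, Kcnj11 and Kcnma1 at 0.01 to 0.05, and most other bars reach across or close to 0.

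Of the Kv1 genes, which encode low-threshold channels of the axon, 6 of 8 were tested and 0 called, with 4 positive and 2 negative signs. Kcna1 (ENSMUSG00000047976, chr6:126640397-126646384, every transcript listed) had 361, 233 and 191 CPM in the control and 408, 433 and 305 CPM in the degenerated libraries. The groups overlapped through control replicate 1, which lay above degenerated replicate 3, and the log2 fold change was 0.54 (SE 0.27, adjusted p = 0.583). Without control replicate 1 it was 0.84, past the call rule. Kcna2, which encodes Kv1.2, the partner of Kv1.1 beside the node of Ranvier, had 10.99, 7.43 and 2.68 CPM in control and 15.0, 14.4 and 19.3 CPM in degenerated libraries. Every degenerated library lay above every control library, with a log2 fold change of 1.21 (SE 0.52, adjusted p = 0.546). Kcna6, which encodes Kv1.6, had 21.8, 22.2 and 5.04 CPM in control and 25.8, 18.5 and 31.3 CPM in degenerated libraries, so that the groups overlapped (0.62, SE 0.58, adjusted p = 0.778), and its exons overlap those of a listed gene on the opposite strand. Control replicate 3, the library with the muscle markers, had the lowest level of Kcna1, Kcna2 and Kcna6 among the control libraries. Kcna10, which encodes Kv1.8, known from hair cells, had 73.5, 36.1 and 53.7 CPM in control and 48.5, 10.7 and 28.1 CPM in degenerated libraries (-0.90, SE 0.57, adjusted p = 0.661). Kcna5 had no listed transcript and is not analysed here.

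The gene of Kvbeta2, the partner of the Kv1 channels, was downregulated. Kcnab2 (ENSMUSG00000028931, chr4:152390742-152477871, 6 of 14 transcripts listed) had 557, 494 and 487 CPM in the control and 316, 390 and 292 CPM in the degenerated libraries. Exons of an unlisted gene overlap those of Kcnab2 on the same strand. The control mean was 513 ± 38.9 CPM (SD, n = 3) and the degenerated mean 333 ± 51.2 CPM (SD, n = 3), and the groups did not overlap. The degenerated level was 0.649 times the control level, with a log2 fold change of -0.62 (SE 0.14, adjusted p = 0.319). Leaving out 1 library at a time gave -0.76 to -0.54, and the call was lost without control replicate 1 (-0.57), control replicate 2 (-0.65), degenerated replicate 1 (-0.60) or degenerated replicate 3 (-0.54). It was kept without control replicate 3, which holds the muscle markers (-0.67), and without degenerated replicate 2 (-0.76). Kcnab1, which encodes Kvbeta1, the subunit that gives Kv1 channels fast inactivation, had 68.0, 50.8 and 75.2 CPM in control and 82.6, 53.0 and 34.3 CPM in degenerated libraries, with overlapping groups (-0.19, SE 0.35, adjusted p = 0.885).

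**Figure D3:**
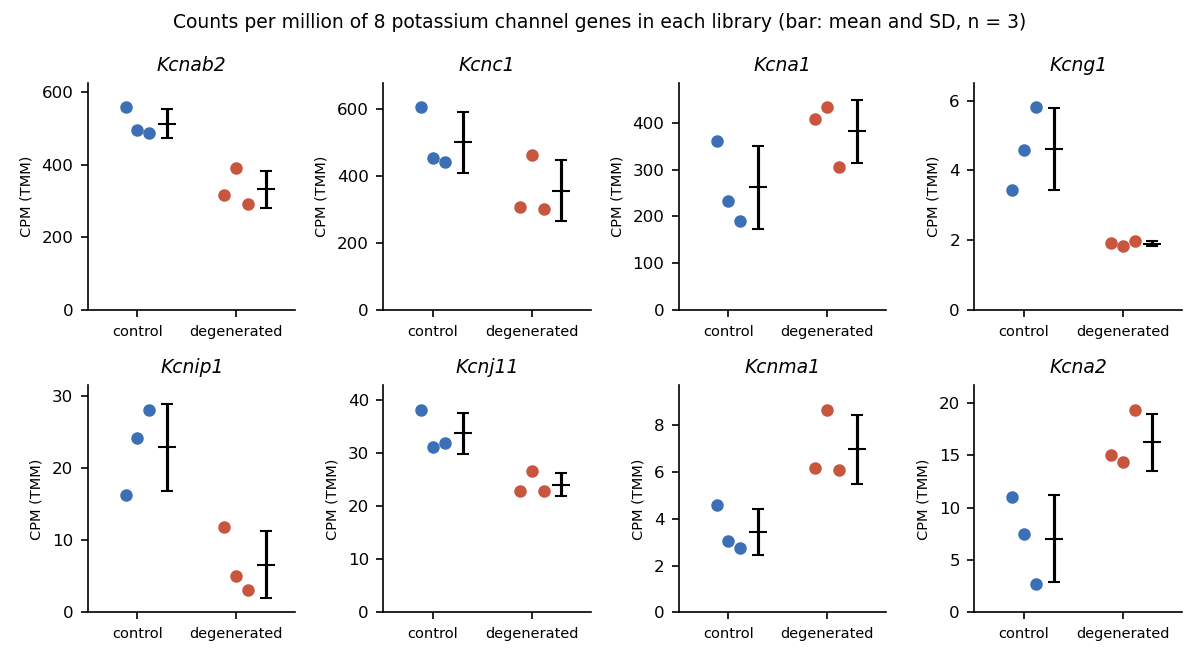
CPM (TMM-normalized) of 8 members in each library, 3 control and 3 degenerated points with the group mean and SD beside them. The groups do not overlap in Kcnab2, Kcng1, Kcnip1, Kcnj11, Kcnma1 and Kcna2, and they overlap in Kcnc1 and Kcna1.

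The counts of Kcnab2 were assigned to a transcript with another first exon in 1 library. Whether that library used another start or its reads were assigned differently cannot be told apart here. ENSMUST00000030768, whose first exon lies beside the window with 20 CG, had 551, 484 and 480 CPM in control libraries, 299 and 360 CPM in degenerated replicates 1 and 2, and 10.8 CPM in degenerated replicate 3. ENSMUST00000159840, with the other first exon, had 273 CPM in degenerated replicate 3 and at most 0.87 CPM in the other 5 libraries. The sum over both followed the gene's level in every library. Tested by itself, ENSMUST00000030768 had a log2 fold change of -1.18 with an SE of 1.06 (adjusted p = 0.854), so the downregulation of Kcnab2 rests on the sum over its listed transcripts.

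Of the Kv3 genes, which encode the fast, high-threshold channels, 3 of 4 were tested and 0 called as genes. Kcnc1 (ENSMUSG00000058975, chr7:46396497-46438704, every transcript listed) had 606, 456 and 442 CPM in the control and 308, 463 and 301 CPM in the degenerated libraries. Degenerated replicate 2 lay within the control range and the other degenerated libraries below it, with a log2 fold change of -0.49 (SE 0.22, adjusted p = 0.555). Without degenerated replicate 2 the value was -0.73, past the call rule. Kcnc2, picked with its values known, had 25.7, 20.8 and 13.4 CPM in control and 16.9, 11.5 and 4.97 CPM in degenerated libraries (-0.84, SE 0.50, adjusted p = 0.647).

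The transcript of Kcnc1 with the longer coding end was downregulated. ENSMUST00000160433 (Kv3.1b) had 234, 173 and 244 CPM in the control and 104, 129 and 106 CPM in the degenerated libraries. All degenerated libraries lay below all control libraries, with a log2 fold change of -0.94 (SE 0.18, adjusted p = 0.383 over 26065 transcripts). ENSMUST00000025202 (Kv3.1a) had 391, 293 and 205 CPM in control and 202, 326 and 195 CPM in degenerated libraries, with overlapping groups (-0.30, SE 0.31, adjusted p = 0.875). The difference between the 2 transcripts was tested through their shares, a test chosen after these values were seen. Of the counts of both, ENSMUST00000160433 took 37.4%, 37.1% and 54.4% in control and 34.1%, 28.4% and 35.1% in degenerated libraries, a difference of -10.5 percentage points. The 3 degenerated shares lay below the 3 control shares, which in an exact two-sided permutation test gives the smallest p it can reach, 0.1. Control replicate 3 set much of the size, since without it the difference was -4.75 points. In that library counts of Kcnab1 and Kcnn2 also lay on another listed transcript than elsewhere (below). For Kcnc1 too, another use of the 2 coding ends and another assignment of the same reads cannot be told apart from these counts. Leaving out 1 library at a time gave log2 fold changes of -1.09 to -0.85 for ENSMUST00000160433, which was called in 3 of 6 such fits and lost without control replicate 1 (-0.88), degenerated replicate 1 (-0.88) or degenerated replicate 3 (-0.90).

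Among the 68 member transcripts tested, 0 were called higher and 2 lower (2.94%), where 0.652% of all transcripts were called lower, 1.14% higher and 1.79% in either direction. The other one called was ENSMUST00000109191 of Kcng1, with a log2 fold change of -1.42 (SE 0.33, adjusted p = 0.514). At an unadjusted p under 0.05, 4 member transcripts were found (5.88%, against 7.55% of all transcripts), 1 higher and 3 lower, where 4.44% and 3.11% of all transcripts were. The groups did not overlap in 12 member transcripts (17.6%, against 16.4% of all transcripts), 6 higher and 6 lower, where 9.13% and 7.24% of all transcripts were. None of the member transcripts passed 0.05 after adjustment with edgeR, where 4 of all transcripts did (0.0153%).

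**Figure D4:**
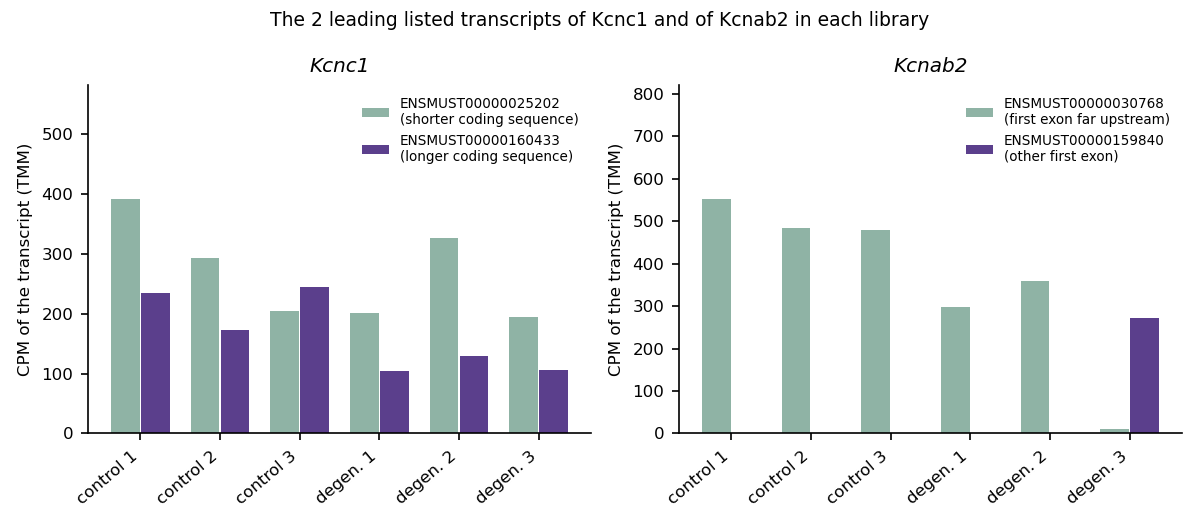
CPM (TMM-normalized) of the 2 leading listed transcripts of Kcnc1 (left) and of Kcnab2 (right), 1 pair of bars per library. The longer-coding Kcnc1 transcript is at most 129 CPM in each degenerated library, and the Kcnab2 counts are assigned to the transcript with the other first exon in degenerated replicate 3.

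The silent subunit Kcng1 was downregulated at a low level. Kcng1 (ENSMUSG00000074575, chr2:168260117-168281736, 2 of 3 transcripts listed) encodes Kv6.1, which forms channels only with Kv2 subunits, and it had 3.44, 4.60 and 5.81 CPM in the control and 1.92, 1.83 and 1.97 CPM in the degenerated libraries. The groups did not overlap, and the log2 fold change was -1.27 (SE 0.33, adjusted p = 0.359), on sums of 208 counts in control and 79 in degenerated libraries. The call was kept only without control replicate 1 (-1.45), and the other 5 fits that left out a library gave log2 fold changes of -1.30 to -1.08. Of the 10 silent subunit genes, 5 were listed and 1, Kcng1, was tested. Kcns3, which encodes Kv9.3, had 77 counts in control replicate 2, 62 in degenerated replicate 1, 3 in degenerated replicate 2 and 0 in the other libraries.

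The Kv4 channels and their KChIP subunits make the transient A-type current. Kcnd1 and Kcnd2 had no listed transcript, and the 1 listed transcript of Kcnd3 had 0 counts in all libraries. Kcnip1 (ENSMUSG00000053519, chr11:33629339-33993152, 2 of 5 transcripts listed) encodes KChIP1 and had 16.3, 24.3 and 28.1 CPM in the control and 11.8, 5.001 and 3.08 CPM in the degenerated libraries. There was no overlap between the groups, degenerated replicate 1 came nearest to the controls, and the log2 fold change was -1.78 (SE 0.55, adjusted p = 0.414), short of the call rule. It was past that rule with DESeq2 (-1.80), with limma-voom (-1.95) and without degenerated replicate 1 (-2.51). Kcnip4, which encodes KChIP4, had 61.6, 48.3 and 32.4 CPM in control and 38.2, 44.2 and 29.3 CPM in degenerated libraries (-0.35, SE 0.29, adjusted p = 0.749), and exons of a listed gene overlap it on the opposite strand. Of 16 auxiliary subunit genes of all kinds, 12 were tested, 5 with a positive and 7 with a negative sign.

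Of the Kv7 genes, which encode the slow M-type channels, 2 of 4 were tested and 0 called. Kcnq3 had 2, 3 and 6 counts in control and 6, 4 and 2 counts in degenerated libraries and was not tested.

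Of the Eag, Erg and Elk genes, 4 of 8 were tested and 0 called. Kcnh2, which encodes Erg1, had 8.94, 18.9 and 22.9 CPM in control and 8.55, 12.6 and 6.95 CPM in degenerated libraries (-0.85, SE 0.43, adjusted p = 0.593), and control replicate 1 lay within the degenerated range. Kcnh5, which encodes Eag2, had 7.55, 3.61 and 2.36 CPM in control and 6.09, 5.99 and 3.24 CPM in degenerated libraries (0.18, SE 0.53, adjusted p = 0.933). Kcnh1, which encodes Eag1 and was picked with its values known, had 1.65, 2.26 and 0.57 CPM in control and 5.75, 2.47 and 2.60 CPM in degenerated libraries, all of them above the controls (1.27, SE 0.62, adjusted p = 0.576). Kcnh7 had no listed transcript.

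Of the calcium- and sodium-activated channel genes, 5 of 8 were tested and 0 called. Kcnma1 (ENSMUSG00000063142, chr14:23289431-24014491) encodes the BK channel, and 8 of its 38 transcripts were listed. It had 4.57, 3.04 and 2.74 CPM in the control and 6.16, 8.66 and 6.08 CPM in the degenerated libraries, with no overlap between the groups and a log2 fold change of 1.01 (SE 0.35, adjusted p = 0.441), short of the call rule. Kcnmb4, the neuronal BK beta subunit gene, had 16.2, 13.9 and 12.3 CPM in control and 12.7, 10.1 and 9.55 CPM in degenerated libraries (-0.38, SE 0.25, adjusted p = 0.676), so that the pore and its beta subunit had opposite signs, with neither called. Kcnn2, which encodes SK2, the calcium-activated channel opposite the efferent synapse of hair cells, had 50.8, 43.7 and 44.0 CPM in control and 43.4, 43.4 and 40.7 CPM in degenerated libraries. The groups did not overlap, yet the log2 fold change was -0.12 with an SE of 0.14 (adjusted p = 0.828). Kcnt1, which encodes the sodium-activated channel Slack, had 24.5, 20.1 and 23.2 CPM in control and 24.1, 25.4 and 27.0 CPM in degenerated libraries (0.18, SE 0.19, adjusted p = 0.799). Kcnt2, its relative Slick, had 0 counts in the control and 7, 6 and 1 counts in the degenerated libraries and was not tested.

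Of the inward rectifier genes, 5 of 14 were tested and 0 called. Kcnj11 (ENSMUSG00000096146, chr7:46093953-46100764, 3 of 5 transcripts listed) encodes Kir6.2, the pore of the ATP-sensitive channel, and had 38.2, 31.1 and 31.8 CPM in the control and 22.8, 26.6 and 22.8 CPM in the degenerated libraries. The groups did not overlap, with a log2 fold change of -0.49 (SE 0.18, adjusted p = 0.482), short of the call rule in edgeR's test and past it in DESeq2's (-0.50). The sulfonylurea receptor genes of the same channel, Abcc8 (-0.03, SE 0.22, adjusted p = 0.976) and Abcc9 (-0.45, SE 0.36, adjusted p = 0.743), were not called. Kcnj13, which encodes Kir7.1 of epithelia, had 39.6, 21.2 and 24.3 CPM in control and 46.8, 33.2 and 27.7 CPM in degenerated libraries (0.34, SE 0.33, adjusted p = 0.781), and its exons overlap those of Gigyf2 on the opposite strand. Kcnj16, which encodes Kir5.1, had 4, 3 and 5 counts in control and 12, 4 and 11 counts in degenerated libraries and was not tested. Kir5.1 pairs with Kir4.1, whose gene Kcnj10 is not among the members. Kcnj10 had 480, 361 and 380 CPM in control and 702, 812 and 652 CPM in degenerated libraries and was upregulated (0.83, SE 0.15, adjusted p = 0.256), a call that was kept without each library in turn (0.73 to 0.95).

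Of the K2P leak channel genes, 6 of 14 were tested and 0 called, and Kcnk1 had no listed transcript. Kcnk3, which encodes the acid-sensitive channel TASK-1, had 14.0, 11.7 and 11.5 CPM in control and 5.95, 9.72 and 9.47 CPM in degenerated libraries. Here too the groups lay apart, with a log2 fold change of -0.57 (SE 0.30, adjusted p = 0.602), and exons of a listed gene overlap it on the opposite strand. Kcnk2, which encodes the stretch-sensitive channel TREK-1, had 102, 56.0 and 77.1 CPM in control and 123, 35.6 and 74.1 CPM in degenerated libraries (-0.02, SE 0.47, adjusted p = 0.993). Its counts lay mostly on ENSMUST00000180044, which is annotated as a target of nonsense-mediated decay. Kcnk4, which encodes the mechanosensitive channel TRAAK and was likewise picked later, had 1.65, 1.77 and 1.98 CPM in control and 5.61, 2.82 and 2.21 CPM in degenerated libraries, again without overlap (0.98, SE 0.44, adjusted p = 0.555). Kcnk12, which encodes the halothane-inhibited relative THIK-2, had 3.57, 13.2 and 8.55 CPM in control and 5.20, 9.72 and 7.66 CPM in degenerated libraries (-0.17, SE 0.53, adjusted p = 0.939).

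The other genes of potassium handling were read from lists of partner proteins and of transporters. Of 18 tested genes for partners that anchor or modify potassium channels, 1 was upregulated and 0 downregulated. Dlg1, which encodes the scaffold SAP97 that binds Kv1 and Kir channels, had 88.8, 69.6 and 63.7 CPM in control and 160, 117 and 126 CPM in degenerated libraries (0.86, SE 0.19, adjusted p = 0.307, 9 of 15 transcripts listed). Its groups lay apart, and the call was lost without control replicate 2 (0.82), control replicate 3 (0.76) or degenerated replicate 1 (0.70). Lrrc38, which encodes a gamma subunit of the BK channel, had 10.1, 10.4 and 11.7 CPM in control and 6.02, 4.37 and 6.08 CPM in degenerated libraries (-0.96, SE 0.27, adjusted p = 0.385), with no overlap and short of the call rule. The genes of the complex that gathers Kv1 channels beside the node were not called, with Cntnap2 at 0.29 (SE 0.49), Cntn2 at -0.07 (SE 0.24) and Adam22 at 0.27 (SE 0.43), all 3 named with their values known.

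Of 17 tested potassium transport genes, 1 was upregulated and 0 downregulated. A positive log2 fold change was found in 13 (median 0.39), beside 7016 of the 14118 genes tested in all. The markers of the stria vascularis and epithelium, a tissue rich in potassium transporters, had 7 positive signs of 8, with the member Kcnj13 among the 7. The part of these markers in the count of transport genes was not tested. Fxyd2, which encodes the gamma subunit of the sodium pump, had 0.73, 1.98 and 0.45 CPM in control and 7.46, 4.51 and 6.00 CPM in degenerated libraries, with no overlap (2.50, SE 0.62, adjusted p = 0.342). The call was kept without control replicate 2 (3.33) and lost without any other library, where the log2 fold change was 2.12 to 2.66. Slc12a7, the potassium-chloride cotransporter KCC4, had 316, 253 and 191 CPM in control and 337, 493 and 419 CPM in degenerated libraries (0.72, SE 0.23, adjusted p = 0.421), also with no overlap. Fxyd6, another sodium pump modulator, had 150, 134 and 110 CPM in control and 148, 278 and 186 CPM in degenerated libraries (0.63, SE 0.26, adjusted p = 0.516), and neither of these passed the call rule. The lists were put together with earlier results of these data known, and their counts stand beside the 2.73% of all genes that were called in either direction.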

How the data were processed

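Total RNA of the cochlear modiolus was sequenced in 3 control and 3 degenerated libraries. The authors' methods name Hisat2 for alignment and StringTie for expression, while the submitters' processing notes name Bowtie 0.12.2 and the builds mm8 and mm10. How reads were counted, with which annotation and strand setting, was not given in the sources used here. Whole-number counts were deposited by the authors for 65535 Ensembl transcripts without normalization, of which 65272 matched GENCODE M21 (GRCm38). The remaining 263 (0.125% of the counts) were dropped. The design assumed counts per gene, so the counts of the listed transcripts were added up per gene. Reads of overlapping or near-identical genes could be split between them. Besides the members whose overlaps are given above, exons of Kcnab1, Kcnd3, Kcnma1, Kcnmb4, Kcnn2, Kcnt2 and Kcnk2 overlap genes on the opposite strand.

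Genes, and transcripts separately, were tested on all 6 libraries by the robust quasi-likelihood F test of edgeR 4.0.16 (R 4.3.3, filter by filterByExpr, TMM factors of 0.983 to 1.02, no covariates). The thresholds on unadjusted p (0.01) and log2 fold change (0.2) are those that the study states for double knockout against wild-type mice. No criterion was stated for the comparison made here, so their use in it is a choice. Alternatives were DESeq2 1.42.0, limma-voom (limma 3.58.1), RLE normalization, no filter on low counts, a mean count of at least 10, the replicate number as a block, genes with every transcript listed, the most abundant transcript, and each library left out. The test of the Kcnc1 share, and leaving out libraries for it, were chosen after seeing the data. Steps were tested on simulated data. The common biological coefficient of variation was 0.488. Libraries within a group carry separate labels, but nothing says that they came from separate animals, so p-values measure the spread between these libraries.

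The members and lists were chosen with earlier results of these data known. Members are named if they pass an unadjusted p under 0.05, have a called transcript, are among the 2 with the highest level per length in their role group, or are known from auditory nerve, hair cells or glia. Genes of other lists are named at an unadjusted p under 0.05, and any further name was picked with its values known. Results for some members are not reported here.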

Additional observations from a re-analysis of the deposited data

How the results depend on the processing

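Of the 2 downregulated members in edgeR's test, none was kept with the replicate number as a block, among genes with every transcript listed (which leave out both) or at an adjusted p under 0.05 (0 each), while DESeq2 called 4 and an unadjusted p under 0.05 selected 4. How many of all genes or transcripts DESeq2 called by the same rule was not counted. Its counts of called members and member transcripts therefore have no share beside them, and no gain over edgeR is read from them. Leaving out 1 library gave 0 to 2 downregulated and 0 to 1 upregulated members, and an unadjusted p under 0.05 selected 2 higher. The median log2 fold change of the members was 0.15 among genes with every transcript listed and -0.34 to -0.036 when 1 library was left out, the former for 15 members only, and the lowest without degenerated replicate 1. Downregulated partner genes were 1 with DESeq2, limma-voom, the block and the genes with every transcript listed (0 in every fit that left out a library), and the upregulated ones 0 among the genes with every transcript listed and 0 to 2 when 1 library was left out. Upregulated transport genes were 0 with the block and among the genes with every transcript listed, and 0 to 1 when 1 library was left out. The genes with every transcript listed held only 1 tested partner gene and 1 tested transport gene. They left out Dlg1 and Fxyd2 by construction, so the 0 there says nothing about those calls. Downregulated member transcripts were 4 with DESeq2, 0 with the block and 1 to 2 without 1 library, and upregulated ones 0 to 2 without 1 library. The most abundant transcript alone reversed Kcnab1 (0.28) and Kcnn2 (0.11). Without 1 library the log2 fold change reversed within -0.14 to 0.76 for Kcnh5, -0.58 to 0.065 for Kcnab1, -0.55 to 0.31 for Kcnk12 and -0.53 to 0.32 for Kcnk2, none of them called. Apart from the constructions named, the cause was not tested. RLE normalization, no filter and a mean count of at least 10 changed none of these calls of members.

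Whether the replicate numbers pair the samples could not be decided. Deviations of same-numbered libraries from their group means correlated weakly, at 0.16, -0.09 and 0.07. With 3 pairs, control replicates 1 and 3 correlated best with their own number, and control replicate 2 with degenerated replicate 3 (0.24). The replicate block left Kcnab2 at -0.63 (edgeR adjusted p = 0.602), Kcng1 at -1.24 (adjusted p = 0.606) and the Kcnc1 transcript ENSMUST00000160433 at -0.93 (adjusted p = 0.834), none of them called, and the genes called over the whole table went from 385 to 218. Members at or near the filter on low counts, such as Kcnt2, could not be compared at this depth, and the listed counts do not give the full depth of the libraries.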

Other observations

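Several members besides Kcnab2 had a listed transcript whose counts lay almost wholly in 1 or 2 libraries, and they are named here after their values were seen. For each of them, another transcript and another assignment of the same reads cannot be told apart from these counts. For Kcnab1, ENSMUST00000161404, annotated as a transcript without a coding sequence, had 61.0 CPM in control replicate 3 and at most 0.68 CPM in the other libraries, and the coding transcript ENSMUST00000049230 had its lowest level, 14.8 CPM, in that library. The sum over the listed transcripts of Kcnab1 in control replicate 3, 75.2 CPM, was the highest of the control group. For Kcnn2, ENSMUST00000066890 had 29.2 CPM in control replicate 3 and at most 0.56 CPM elsewhere, and ENSMUST00000211323 had 14.3 CPM there and 36.4 to 45.3 CPM elsewhere.

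Kcnip2, which encodes the Kv4 subunit KChIP2, had 27.5 CPM in control replicate 3, 30.3 CPM in degenerated replicate 2, 2.39 CPM in degenerated replicate 1 and 0 counts in the other 3 libraries. Its counts in control replicate 3 lay mostly on ENSMUST00000162528 (24.9 CPM) and those in degenerated replicate 2 on ENSMUST00000079431 (28.8 CPM). Kcna6 had 20.3 CPM of ENSMUST00000112242 in control replicate 1 and 29.7 CPM in degenerated replicate 3, where the other coding transcript, ENSMUST00000185333, had 2.05 and 1.66 CPM. In degenerated replicate 1 the former had 0.89 CPM and the latter 17.2 CPM. Kcnk13, a K2P gene related to Kcnk12, had 76 counts in control replicate 3, 96 in degenerated replicate 1, 1 in control replicate 2, 3 in degenerated replicate 2 and 0 in the other libraries.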
